A study of Mus musculus with 24 samples.

Results

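RIKEN cDNA loci whose names carry an overlap suffix were examined in mouse splenic B cells with and without Spt5. The loci are the rows of the B cell RNA-seq count table whose name holds Rik followed directly by _IMP_OVL, leaving out D130020L05Rik, and they number 163 of the 14106 rows. The rule reads the name alone and no measured value. The sources used here do not say what the suffix stands for. Of the 163 loci, 162 were matched to a RefSeq gene (GRCm38.p6 tables, 127 by symbol and 35 by synonym), and 106 of these are long non-coding RNA genes, 52 are protein-coding and 4 are transcribed pseudogenes. The 35 loci matched by synonym have since received another symbol, and that symbol is used below where it exists.

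The RNA came from primary splenic B cells cultured with IL4 and LPS. WT cells were Rosa26ERT2-cre/+, and Spt5-depleted cells were Supt5hFl/- Rosa26ERT2-cre/+, so the control cells also carry the tamoxifen-activated Cre recombinase and have no conditional Supt5h allele. In both groups 28 h of activation came first, and 2 µM 4-hydroxytamoxifen (4-HT), the drug that switches on this Cre, was present for the 32 h that followed, 60 h of activation in all. Each group has 3 libraries of poly(A) RNA; the ages of the mice are not given, and one label field calls the cells immature while another calls them mature. The other 18 of the 24 samples of the series belong to other assays and were not analysed here. The labels do not say whether libraries came from separate mice, so the p-values reflect only how much these libraries vary, part of which may be technical.

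Spt5 is a subunit of DSIF, the factor that holds RNA polymerase II near the start of genes and later travels with it during elongation, and in activated B cells it is also known as a partner of the deaminase AID. Rik names were given to genes first known from the RIKEN mouse cDNA collection. Many of them are long non-coding RNAs that start beside or run antisense to a protein-coding gene, and such transcripts are often short-lived and present at low levels. A locus that overlaps another gene can share reads with it, and without strand in the counting the reads of both cannot be told apart. The sources used here do not state whether strand was used in counting.

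The RefSeq promoters of 6 of the loci are shown as examples of loci described below, 4 that rose and the 2 long non-coding loci with the largest falls. They were chosen after the values were seen. Each runs from 250 bases before to 50 bases after the RefSeq start, 5′ to 3′ on the strand of the locus, in GRCm38.p6 coordinates. Capitals mark the letters TATAAA of the TATA box, the GC box GGGCGG, the E-box CACGTG and the box named for its letters CCAAT, each searched on both strands. The E-box reads the same on both strands, and matches that overlap share letters.
Stk35os1 (4932416H05Rik, chr2:129801410-129801709, minus strand, rose): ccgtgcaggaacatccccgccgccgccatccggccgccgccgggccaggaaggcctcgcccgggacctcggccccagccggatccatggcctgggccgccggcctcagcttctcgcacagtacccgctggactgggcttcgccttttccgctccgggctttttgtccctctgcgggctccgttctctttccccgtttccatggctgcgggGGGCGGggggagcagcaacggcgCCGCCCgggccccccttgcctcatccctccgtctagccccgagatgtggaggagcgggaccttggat
2310068J16Rik (chr15:99973238-99973537, minus strand, rose): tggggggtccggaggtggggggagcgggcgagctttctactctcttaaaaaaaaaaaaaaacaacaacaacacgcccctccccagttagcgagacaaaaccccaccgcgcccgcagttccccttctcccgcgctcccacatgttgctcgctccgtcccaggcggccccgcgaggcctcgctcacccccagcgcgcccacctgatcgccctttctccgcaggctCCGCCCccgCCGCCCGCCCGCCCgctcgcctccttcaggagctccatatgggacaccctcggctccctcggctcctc
Chaserr (1810026B05Rik, chr7:73558346-73558645, minus strand, rose): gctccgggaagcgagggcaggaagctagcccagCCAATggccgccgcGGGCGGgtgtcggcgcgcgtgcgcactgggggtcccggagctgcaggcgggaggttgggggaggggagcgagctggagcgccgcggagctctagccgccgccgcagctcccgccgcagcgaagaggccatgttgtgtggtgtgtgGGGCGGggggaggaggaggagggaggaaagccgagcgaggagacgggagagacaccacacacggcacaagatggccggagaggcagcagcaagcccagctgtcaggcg
Particl (4930414L22Rik, chr6:72438433-72438732, plus strand, rose): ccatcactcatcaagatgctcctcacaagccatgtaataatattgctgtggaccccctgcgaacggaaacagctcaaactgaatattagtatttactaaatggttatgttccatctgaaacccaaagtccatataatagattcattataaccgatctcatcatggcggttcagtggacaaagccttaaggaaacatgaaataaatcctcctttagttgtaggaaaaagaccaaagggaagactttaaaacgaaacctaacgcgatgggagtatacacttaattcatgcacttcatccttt
Zfas1 (1500012F01Rik, chr2:167062684-167062983, plus strand, fell): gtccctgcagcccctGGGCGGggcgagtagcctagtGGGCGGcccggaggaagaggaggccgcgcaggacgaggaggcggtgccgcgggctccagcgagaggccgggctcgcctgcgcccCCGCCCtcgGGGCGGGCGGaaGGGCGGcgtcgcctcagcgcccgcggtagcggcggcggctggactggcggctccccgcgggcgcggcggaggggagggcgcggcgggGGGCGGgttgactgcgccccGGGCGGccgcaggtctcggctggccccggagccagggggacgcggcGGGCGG
Snhg16 (1810032O08Rik, chr11:116671410-116671709, plus strand, fell): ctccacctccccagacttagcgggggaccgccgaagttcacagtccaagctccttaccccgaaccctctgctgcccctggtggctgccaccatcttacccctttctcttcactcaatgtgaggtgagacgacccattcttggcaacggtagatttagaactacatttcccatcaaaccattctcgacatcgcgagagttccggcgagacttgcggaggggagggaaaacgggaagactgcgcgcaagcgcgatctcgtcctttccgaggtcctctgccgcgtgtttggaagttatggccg

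Among the 4 shown promoters of loci that rose, those of Stk35os1, 2310068J16Rik and Chaserr hold 2, 4 and 2 GGGCGG matches with 31, 29 and 30 CG dinucleotides, while that of Particl holds no match to any of the 4 motifs and 7 CG dinucleotides. The promoter of Zfas1 holds 9 GGGCGG matches and 47 CG dinucleotides, and that of Snhg16 holds none of the motifs and 22 CG dinucleotides. The RefSeq table gives a promoter for 124 of the 163 loci. Its first listed promoter holds GGGCGG in 63 of the 124 (50.8%), against 35.9% of the first promoters of all 27025 genes in the table, TATAAA in 6 (4.84%) against 14.2%, CACGTG in 15 (12.1%) against 7.24% and CCAAT in 36 (29.0%) against 37.9%. Among the 57 promoters of loci that rose, a split made on the calls, 34 (59.6%) hold GGGCGG. The shares of the other motifs in these 57, in the order above, were 5.26%, 12.3% and 29.8%. They lay near the 4.84%, 12.1% and 29.0% of the 124. Whether the GC box share differs between loci that rose and the other loci was not tested. The 27025 genes were not limited to rows of the count table, while the loci all have counts in these cells. The part of this difference in the shares was not tested. These letters are a description of the sequences and name no binding event.

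Library totals ran from 23340978 to 25649611 counts in WT and from 17306549 to 21441575 in Spt5-depleted cells. Supt5, the gene of Spt5, had 3796, 3512 and 4666 counts in WT and 189, 196 and 314 in depleted libraries, which is 170.5 ± 18.7 against 11.1 ± 2.26 CPM (counts scaled to a common library size, mean ± SD, n = 3 each) and a log2 fold change of -3.94 ± 0.14 (SE, edgeR adjusted p = 1.26e-10). Summed B cell markers stood at 12682 to 13464 CPM in WT and 12774 to 14977 CPM in depleted libraries, and 0 of 7 were higher and 2 lower. Of 7 macrophage and monocyte markers 6 are in the table and 4 were higher (summed level 73.6 to 101 CPM in WT, 101 to 173 in depleted cells), while Adgre1 is not in the table. Summed NK cell markers were lower in every depleted library (19.7 to 26.1 CPM in WT, 4.13 to 11.6 CPM in depleted cells), with Gzmb lower and Ncr1 not in the table, and so were summed plasma cell markers (1950 to 3018 CPM against 1581 to 1785 CPM), with Xbp1 lower and Sdc1 higher. Of the dendritic cell markers Xcr1 was higher, while the summed level was 80.4 to 94.2 CPM in WT and 86.1 to 90.2 CPM in depleted libraries. T cell markers summed to 14.6 to 16.4 CPM in WT and 5.92 to 18.8 CPM in depleted libraries, with 0 of 7 called, and neutrophil and erythroid markers stayed at or under 3.79 CPM. The part of these markers in the results below was not tested. Xist was at 468 to 915 CPM in WT and at 1.01 to 1.73 CPM in depleted libraries, and Ddx3y, Eif2s3y, Uty and Kdm5d were at 17.5 to 54.2 CPM in depleted libraries and at most 0.091 CPM in WT, so the sex of the cells and the depletion of Spt5 cannot be told apart in these libraries. Of the 163 loci 5 lie on X or Y, and the 3 of them that could be tested were all higher.

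More of the suffixed Rik loci rose than fell after Spt5 depletion. In the fit across all genes, 12024 genes passed the filter on low counts, and 114 of the 163 loci were among them. Of these 114, 73 were called higher after depletion, with an adjusted p under 0.05 (64.0%), 12 were lower (10.5%) and 29 did not pass the test. Over all genes tested, 31.8% were higher and 30.6% lower. With library totals alone as the scaling, under which the all-gene median lies at 0.164 on the log2 scale and not at 0.005, 75 of the loci were higher and 8 lower, and over all genes 4962 were higher and 2694 lower in place of 3823 and 3681. The median log2 fold change of the 114 loci was 1.01. At least 2-fold rises were found in 56 of the loci, against 9.87% of all genes tested, and at least 2-fold falls in 3, against 7.63%. In all 3 depleted libraries the level was above every WT library for 86 of the 163 loci and below every WT library for 14, while 32.3% of all rows of the table lay above and 30.3% below. The 163 loci together took 0.149%, 0.152% and 0.160% of the counts in the WT libraries and 0.205%, 0.195% and 0.199% in the depleted libraries, so the groups did not overlap in this share.

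Low loci could enter the test through the depleted libraries alone. The filter asks for about 0.447 CPM in 3 libraries, and 16 tested loci reached this in no WT library, all of which were called higher. Among the 83 tested loci at that level in every WT library, 46 were higher and 12 lower, against 30.1% and 32.5% of all tested genes at that level in every WT library, a choice made after the values were seen. The 49 loci that were not tested had a median of 26 and at most 59 counts over the 6 libraries; 34 of them had the higher mean in depleted cells, with 13 above and 2 below every library of the other group. Without any filter, 81 of the 163 loci were called higher and 12 lower, against 28.7% and 27.4% of all rows. In the authors' deposited table, 75 of the 163 loci were higher and 12 lower at an adjusted p under 0.05, against 26.4% and 25.7% of all rows, and the sign was that of the edgeR fit for 112 of the 114 tested loci.

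The largest rises were found at loci that were nearly silent in WT cells. 2900009J06Rik, a long non-coding locus that overlaps Acmsd on the opposite strand, had 1, 2 and 0 counts in WT and 39, 28 and 43 counts in depleted libraries. The ratio of the summed levels was 41.2 (95% counting interval 13.7 to 203, which covers counting error only), and the adjusted p was 1.35e-06. A630019I02Rik, antisense to Cmya5, had 2, 0 and 1 counts in WT and 23, 33 and 33 in depleted libraries, a ratio of 33.3 (11.0 to 165). Both loci were well apart in the 2 groups, and their WT levels rest on 3 counts each. They are among the 16 tested loci that reached the filter level in no WT library. Such loci could be called higher but not lower. B230312C02Rik, which was not tested, had 0 counts in every WT library and 4, 5 and 5 in the depleted libraries. With a floor of 3 counts set for the WT group the ratio was 5.24. The lower 95% counting limit for the ratio without that floor was 3.72. This locus was chosen after its values were seen.

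The loci that follow had more WT counts, and they rose by less than 2900009J06Rik and A630019I02Rik, with smaller standard errors. Class medians over all suffixed Rik loci are given below, with a prior count of 2 that draws low counts toward 0. By this measure the median rise was not largest at the lowest WT levels. The order of the class medians without this prior count was not tested. The long non-coding locus 4930528A17Rik stood at 0.379, 0.636 and 0.659 CPM in WT and at 7.54, 5.95 and 4.76 CPM in depleted libraries, a log2 fold change of 3.43 ± 0.27 (SE, edgeR adjusted p = 7.35e-08). Stk35os1, the opposite-strand transcript of the kinase gene Stk35, stood at 0.590, 0.591 and 0.865 CPM in WT and 4.35, 5.15 and 3.85 CPM in depleted libraries (log2 fold change 2.69 ± 0.25, edgeR adjusted p = 4.15e-07). Both loci were far above every WT library in every depleted library. 2310068J16Rik, which lies opposite Larp4, stood at 1.01, 0.364 and 0.782 CPM in WT and 5.36, 4.92 and 5.37 CPM in depleted libraries, and its WT libraries varied more than its depleted ones. Its log2 fold change was 2.84 ± 0.27 (SE, edgeR adjusted p = 5.27e-07). Zbtb11os1, opposite Zbtb11, stood at 1.39, 1.09 and 1.40 CPM in WT and at 6.75, 7.96 and 6.49 CPM in depleted libraries, a log2 fold change of 2.44 ± 0.20 (edgeR adjusted p = 8.44e-08).

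**Figure D1:**
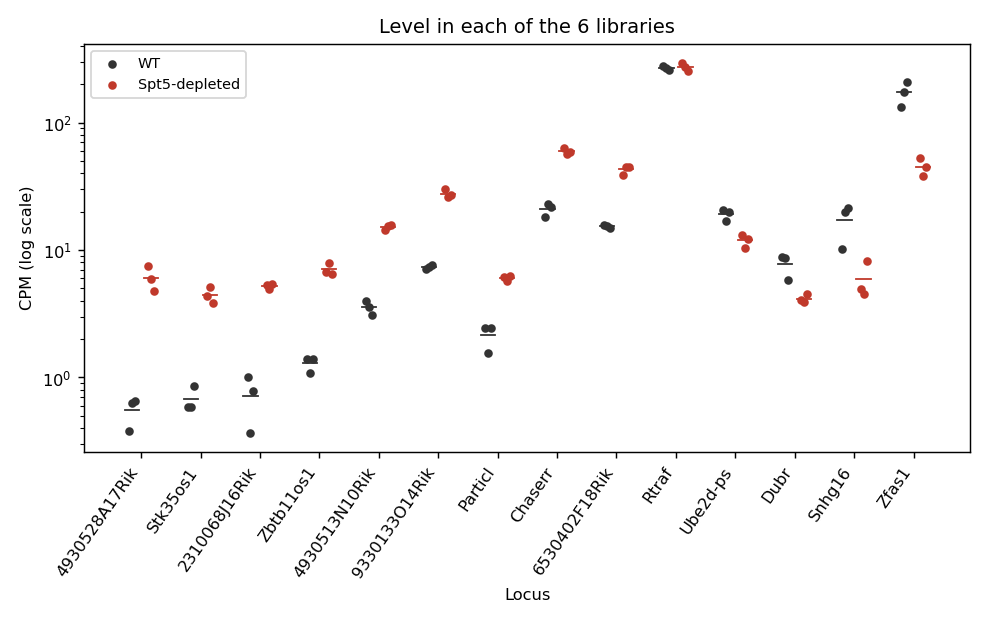
Level (TMM-normalised CPM, log axis) of 14 suffixed Rik loci in each of the 3 WT and 3 Spt5-depleted libraries; points are libraries and short lines are group means. The 9 loci at the left are above WT in every depleted library, Rtraf overlaps between the groups, and the 4 loci at the right are below WT in every depleted library.

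The other loci of the 12 largest rises span the same low range of WT levels. 0610040F04Rik, 1810062O18Rik, 1700018L02Rik, 4732416N19Rik and A230072E10Rik, all long non-coding, and G630090E17Rik, a transcribed pseudogene of an Mfsd4b gene, had mean WT levels from 0.0732 to 0.147 CPM and mean depleted levels from 0.479 to 1.14 CPM, with log2 fold changes from 2.52 to 3.47. A230072E10Rik is among the loci on the sex chromosomes. The protein-coding 4930426D05Rik stood higher, at 1.39, 1.05 and 1.24 CPM in WT and 11.0, 7.31 and 10.7 CPM in depleted libraries (log2 fold change 2.97 ± 0.21, edgeR adjusted p = 3.03e-08). Each of these 7 loci was above every WT library in every depleted library. All of them but 4930426D05Rik reached the filter level in no WT library, so they could be called higher but not lower.

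Among loci that WT cells transcribed at several CPM, long non-coding ones rose as well. 4930513N10Rik, which overlaps Cnot1, stood at 3.96, 3.59 and 3.09 CPM in WT and at 14.3, 15.4 and 15.8 CPM in depleted libraries, a log2 fold change of 2.1 ± 0.14 (edgeR adjusted p = 1.36e-08). 9330133O14Rik stood at 7.12, 7.41 and 7.58 CPM in WT and at 29.9, 26.3 and 26.8 CPM in depleted libraries, a log2 fold change of 1.91 ± 0.11 (edgeR adjusted p = 3.60e-09). The replicates of both loci lay close together, and the groups were far apart. 6530402F18Rik, on the same strand as the netrin-G gene Ntng2, stood at 15.7, 15.3 and 14.9 CPM in WT and 38.6, 45.0 and 45.0 CPM in depleted libraries, a log2 fold change of 1.49 ± 0.10 (edgeR adjusted p = 1.65e-08). Chaserr, a long non-coding RNA known to repress the neighbouring chromatin remodeller gene Chd2, stood at 18.2, 23.0 and 21.8 CPM in WT and at 63.1, 56.4 and 58.9 CPM in depleted libraries. Its log2 fold change was 1.5 ± 0.11 (SE, edgeR adjusted p = 2.27e-08). Particl, known as an antisense RNA of the promoter of Mat2a, the methionine adenosyltransferase gene, stood at 2.44, 1.55 and 2.43 CPM in WT and at 6.20, 5.71 and 6.23 CPM in depleted libraries (log2 fold change 1.49 ± 0.20, edgeR adjusted p = 1.33e-05). Lppos, opposite the LIM protein gene Lpp, stood at 11.5, 13.1 and 15.5 CPM in WT and 24.1, 21.3 and 21.2 CPM in depleted libraries, a smaller rise with a log2 fold change of 0.73 ± 0.12 (edgeR adjusted p = 1.21e-04).

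The 12 loci that fell include 5 long non-coding and 7 protein-coding ones. Zfas1, which hosts small nucleolar RNAs in its introns, had the largest fall and the second highest WT level of all 163 loci. It stood at 133.5, 174.9 and 209.3 CPM in WT and at 52.3, 38.2 and 44.4 CPM in depleted libraries, 3.84-fold lower, with a log2 fold change of -1.94 ± 0.17 (SE, edgeR adjusted p = 6.21e-06). Snhg16, by name another small nucleolar RNA host gene, stood at 10.3, 19.7 and 21.3 CPM in WT and 4.97, 4.54 and 8.27 CPM in depleted libraries (log2 fold change -1.52 ± 0.33, edgeR adjusted p = 5.48e-03). Both host genes varied between WT libraries, with the lowest value in WT library 1. Ube2d-ps stood at 20.8, 16.95 and 20.1 CPM in WT and at 13.1, 10.3 and 12.2 CPM in depleted libraries, a log2 fold change of -0.70 ± 0.13 (edgeR adjusted p = 2.01e-04). Dubr, a long non-coding RNA studied in muscle cells, stood at 8.76, 8.59 and 5.85 CPM in WT and at 4.08, 3.89 and 4.50 CPM in depleted libraries, a log2 fold change of -0.89 ± 0.18 (edgeR adjusted p = 5.62e-04). 2810025M15Rik fell less, from 25.6 ± 3.16 to 17.1 ± 1.23 CPM (SD, n = 3 each; edgeR adjusted p = 4.43e-04).

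Shfl, an interferon-induced antiviral protein that blocks ribosomal frameshifting, stood at 7.08, 12.4 and 17.4 CPM in WT and at 5.19, 5.62 and 6.71 CPM in depleted libraries, a log2 fold change of -1.07 ± 0.30 (edgeR adjusted p = 0.0128). The call was lost without Spt5-depleted library 1, where the log2 fold change was -0.995. 1700030K09Rik, a protein-coding locus, stood at 27.9, 27.1 and 28.1 CPM in WT and 16.7, 15.5 and 16.2 CPM in depleted libraries, a log2 fold change of -0.78 ± 0.10 (edgeR adjusted p = 7.33e-06). Aopep, an aminopeptidase, had a log2 fold change of -0.58 ± 0.19 (edgeR adjusted p = 0.0165), and its call was lost without WT library 3 (-0.49) and without depleted library 3 (-0.50). Prorp, the nuclease subunit of mitochondrial RNase P, had a log2 fold change of -0.28 ± 0.11 (edgeR adjusted p = 0.0437) with overlap between the groups. The other protein-coding loci that fell, named after their values were seen, were Dele1, a mitochondrial stress relay protein (-0.43), 4930430F08Rik (-0.43) and the centriole gene Cep295 (-0.30).

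Protein-coding loci at high WT levels changed by small amounts or did not pass the test. Rtraf, a member of the tRNA ligase complex and the suffixed Rik locus with the highest WT level, stood at 276.7, 266.3 and 260.0 CPM in WT and at 295.7, 275.1 and 254.7 CPM in depleted libraries. The groups overlapped (log2 fold change 0.04 ± 0.09, edgeR adjusted p = 0.703). Rbis, a ribosome biogenesis factor, stood at 142.8, 125.5 and 133.3 CPM in WT and at 206.4, 154.7 and 141.0 CPM in depleted libraries, a log2 fold change of 0.32 ± 0.12 (edgeR adjusted p = 0.0385) that no longer passed without depleted library 1 (0.14), without WT library 2 (0.27) or without WT library 3 (0.31). 4833439L19Rik stood at 92.1, 88.3 and 85.8 CPM in WT and 138.3, 140.8 and 139.4 CPM in depleted libraries, a log2 fold change of 0.65 ± 0.08 (edgeR adjusted p = 6.51e-06). The groups of this locus were separate by a wide margin. 4933434E20Rik (0.46 ± 0.08, edgeR adjusted p = 2.52e-04) and Timm29, a subunit of the mitochondrial inner membrane translocase (0.33 ± 0.09, edgeR adjusted p = 4.40e-03), rose with no overlap between groups. Cyren, a protein-coding regulator of DNA end joining at a lower level, averaged 3.47 ± 0.61 CPM in WT libraries and 8.33 ± 1.43 CPM after depletion (SD, n = 3 each) and rose with a log2 fold change of 1.26 (edgeR adjusted p = 3.15e-05).

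Of the 29 loci that did not pass the test, 27 overlapped between the groups. Besides Rtraf, those with the highest WT levels were Faap24 of the Fanconi anaemia core complex (log2 fold change -0.17 ± 0.10, edgeR adjusted p = 0.136), Rmc1, a lysosomal trafficking regulator (-0.18 ± 0.10, edgeR adjusted p = 0.153), and Cebpzos, which overlaps Cebpz (0.03 ± 0.11, edgeR adjusted p = 0.818). Faap24 passed as lower without WT library 2 (-0.24), and a p above the threshold does not show that these levels were equal. Just inside the threshold stood Prorp, Rbis and 5830444B04Rik, whose 0, 4 and 10 counts in WT and 14, 13 and 12 counts in depleted libraries gave an edgeR adjusted p of 0.0332. Just outside stood A430088P11Rik (9, 16 and 5 against 14, 18 and 18 counts, edgeR adjusted p = 0.0767), 4930549G23Rik (2, 7 and 16 against 11, 23 and 13 counts, edgeR adjusted p = 0.0905) and Faap24. Several of these calls changed when 1 library was left out. A430088P11Rik passed without WT library 2 (log2 fold change 1.44) and 4930549G23Rik without WT library 3 (1.90). 5830444B04Rik lost its call without WT library 1 (1.04) or 2 (1.57) or depleted library 1 (1.47), 2 (1.65) or 3 (1.77), and Prorp lost it without WT library 2 (-0.26) or 3 (-0.20) or depleted library 1 (-0.22), 2 (-0.33) or 3 (-0.29). Without depleted library 2 or 3, both had a log2 fold change at least as large in size as with all 6 libraries.

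The size of the rise varied with the WT level. The loci were put in classes by their mean WT level in CPM, which is a level of reads and not of transcripts per length, and their log2 fold changes were taken from the fit without a filter with a prior count of 2, which draws low counts toward 0. The WT counts enter both the class and the fold change, so a locus placed in a low class by counting error tends to show a rise. The shares of all genes given beside the classes rest mostly on protein-coding genes (12990 of 14106 rows). Those of all long non-coding rows are given with the gene types below. Under 0.5 CPM, 71 loci had a median log2 fold change of 0.84 (quartiles 0.11 and 1.38) and a median difference of 0.203 CPM, and 27 were called higher and 0 lower (38.0% higher, against 27.1% of all genes in that class). From 0.5 to 2 CPM, 34 loci had a median of 1.14 (0.32 and 1.93) and a median difference of 1.41 CPM, with 24 higher and 0 lower (70.6% higher, against 28.2%). From 2 to 8 CPM, 27 loci had a median of 1.02 (0.21 and 1.67) and a median difference of 3.66 CPM, with 18 higher and 2 lower (66.7% higher, against 33.4%). The balance was different in the upper classes: from 8 to 32 CPM, 20 loci had a median of -0.08 (-0.47 and 0.37), with 6 higher and 7 lower (30.0% and 35.0%, near the 33.6% and 30.0% of all genes), and at 32 CPM and above 11 loci had a median of 0.31 (-0.24 and 0.40), with 6 higher and 3 lower (54.5% and 27.3%, against 25.3% and 38.6%). The median from 8 to 32 CPM was 0.08 with library totals alone and 0.01 with classes by the mean over all 6 libraries, so its sign is not settled. Of the 12 loci called lower in this fit, 2 stood under 8 CPM in WT, Dubr and Aopep.

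**Figure D2:**
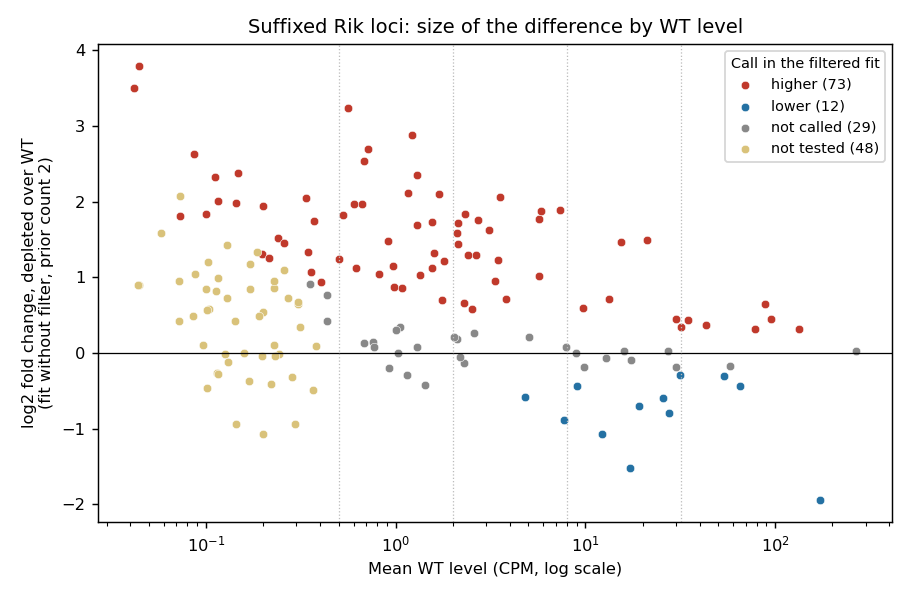
Log2 fold change (depleted over WT, fit without a filter, prior count 2) against mean WT level (CPM, log axis) for the 162 suffixed Rik loci with a WT count; dotted lines are the class limits at 0.5, 2, 8 and 32 CPM and colours give the call in the filtered fit. Calls above 0 fill the range under 8 CPM, and calls below 0 start at 4.78 CPM with Aopep.

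Rik loci without a suffix, 585 rows, are the background for the name. Of 422 tested, 216 were higher (51.2%) and 66 lower (15.6%), with a median log2 fold change of 0.46, against 64.0%, 10.5% and 1.01 for the suffixed loci. In the same WT classes, from low to high, their medians were 0.76, 0.83, 0.45, 0.10 and 0.14, and those of all genes were 0.43, -0.00, 0.07, 0.02 and -0.09. The suffixed loci had the higher median in 4 of the 5 classes, with the widest gap from 2 to 8 CPM, where 18 of 27 suffixed loci and 42 of 84 others were called higher. No test of the difference between the 2 sets was made, and they differ in their share of long non-coding genes, for which the medians are given by gene type below. The remaining 6 Rik rows with another suffix or number had 1 of 4 tested loci called higher.

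**Figure D3:**
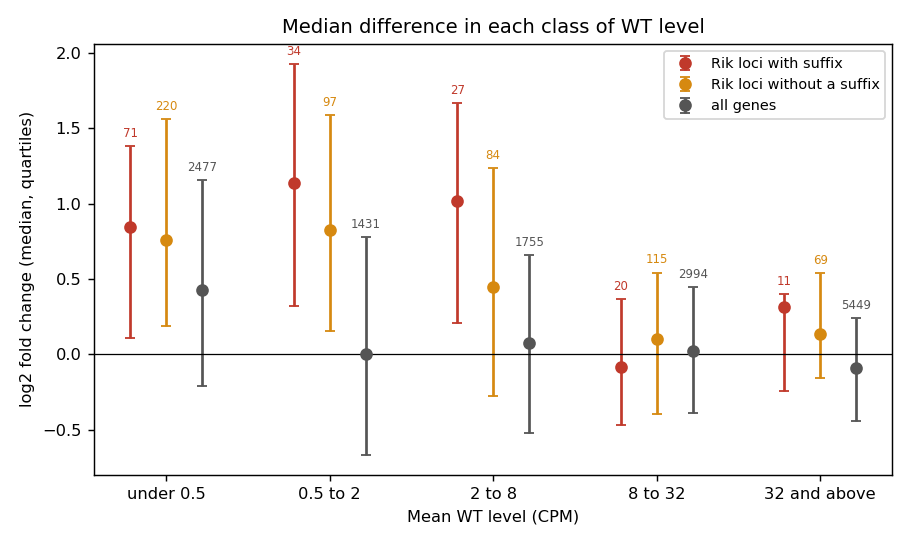
Median log2 fold change (points) with quartiles (bars) in each class of mean WT level (CPM) for suffixed Rik loci, Rik loci without a suffix and all genes; small numbers are the loci in each class. The medians of the suffixed loci lie near 1 in the 3 classes under 8 CPM and at -0.08 and 0.31 above.

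Suffixed loci with other names rose and fell in nearly equal number under TMM scaling, but not with library totals alone, where 647 were higher and 318 lower. Of 1837 suffixed rows without Rik in the name, 1596 were tested, and 489 were higher and 463 lower, with a median log2 fold change of 0.00. Among them the 63 Gm-numbered rows, predicted mouse genes, gave 37 tested loci with 22 higher, 1 lower and a median of 1.19. Long non-coding genes by RefSeq type make up 4.68% of the 1837 rows, against 65.0% of the suffixed Rik loci. Of the 51 long non-coding rows tested among the 1837, 31 were higher and 4 lower, with a median of 1.19. Of the 1527 protein-coding rows tested, 451 were higher and 457 lower, with a median of -0.01.

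RefSeq gene type split the suffixed Rik loci, a division made after the values were seen. Of 67 tested long non-coding loci 51 were higher and 5 lower, with a median log2 fold change of 1.5, while 65.8% of all long non-coding rows tested were higher. Of 43 tested protein-coding loci 20 were higher and 7 lower, with a median of 0.22, while 31.3% of all protein-coding rows tested were higher. Of the 4 transcribed pseudogenes 2 were higher and 0 lower. Rik loci without a suffix showed the same kind of split, with 106 of 160 tested long non-coding loci higher (median 1.15) and 107 of 253 protein-coding loci higher (median 0.19). Long non-coding genes make up 65.0% of the suffixed loci and 41.2% of those without a suffix. Long non-coding loci also stood lower in WT cells, with a median of 0.363 CPM against 5.38 CPM for protein-coding ones. Within the class from 2 to 8 CPM, 16 long non-coding loci had a median log2 fold change of 1.52 and 10 protein-coding loci a median of 0.64, and from 0.5 to 2 CPM the medians were 1.23 (26 loci) and 0.34 (8 loci). From 8 to 32 CPM, 6 long non-coding loci had a median of 0.06 and 13 protein-coding loci one of -0.10. The 6 long non-coding loci were split, with 3 called higher, 3 called lower and quartiles of -0.68 and 1.28. Of the 13 protein-coding loci 3 were called higher and 4 lower. Under 0.5 CPM, 23 of 57 long non-coding loci were called higher (40.4%, against 39.7% of all long non-coding rows in that class). From 0.5 to 2 CPM 20 of 26 were higher (76.9%, against 65.4%), and from 2 to 8 CPM 12 of 16 (against 69.6%). The medians of all long non-coding rows in these classes were 0.84, 1.12 and 0.94, beside 0.90, 1.23 and 1.52 for the loci. These rows include the loci, and the difference was not tested. Beside Rik loci without a suffix of the same type and class, the gap between the sets was not uniform. For long non-coding loci the medians were 0.90 in both sets under 0.5 CPM, 1.23 against 1.12 from 0.5 to 2 CPM, 1.52 against 1.06 from 2 to 8 CPM and 0.06 against 0.29 from 8 to 32 CPM. For protein-coding loci the suffixed set was lower under 0.5 CPM (0.57 against 0.63), from 0.5 to 2 CPM (0.34 against 0.60) and from 8 to 32 CPM (-0.10 against 0.06), and higher from 2 to 8 CPM (0.64 against -0.07) and at 32 CPM and above (0.31 against 0.17).

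**Figure D4:**
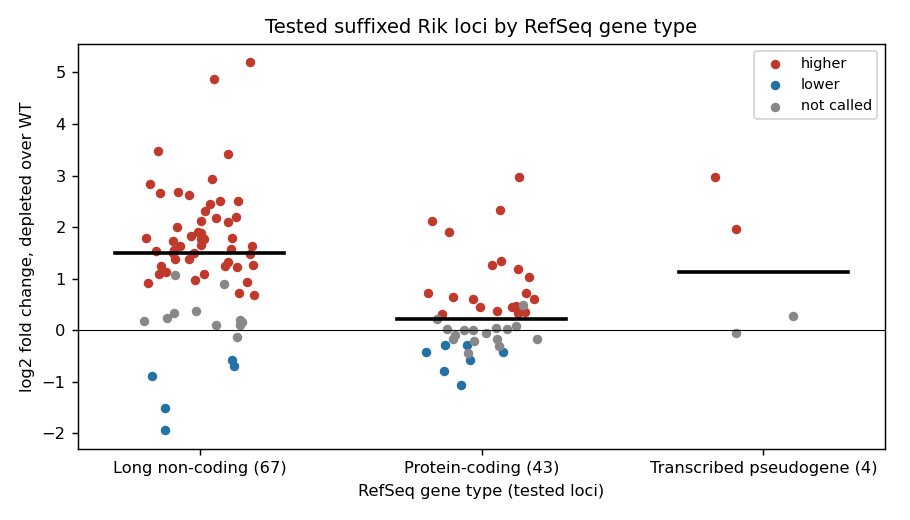
Log2 fold change (depleted over WT, filtered fit) of the 114 tested suffixed Rik loci by RefSeq gene type; points are loci, colours give the call and black lines are medians. The medians are 1.5 for 67 long non-coding loci, 0.22 for 43 protein-coding loci and 1.12 for 4 transcribed pseudogenes.

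Nearly all suffixed Rik loci overlap another gene in the RefSeq tables. An overlapping RefSeq gene was found for 160 of the 162 matched loci, and for 147 that gene has a row of its own in the count table. Of those 147 rows 139 (94.6%) carry the suffix too, while it stands on 14.2% of all rows. The overlapping gene lies on the opposite strand for 91 loci and on the same strand for 3, and the strand is not in the tables for 53. In 43 of the 91 opposite pairs the 2 starts lie within 1000 bases of each other. Distances are of GRCm38.p6 and not of mm9, the build of the counts.

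The loci and the genes they overlap did not move as one. In 94 pairs both were tested, with 92 distinct overlapping genes, 90 of the pairs with a protein-coding gene. The Rik loci of these pairs were higher in 63 and lower in 9, and the overlapping genes were higher in 31 and lower in 27. Over all genes tested 31.8% were higher and 30.6% lower, and the overlapping genes lay near these shares. The median log2 fold change was 1.08 for the loci and 0.03 for the overlapping genes. The locus had the larger log2 fold change in 76 of the 94 pairs and the lower WT level in 74, with median WT levels of 1.94 and 41.0 CPM. Where several rows overlapped a locus, the row with the highest mean over the 6 libraries was taken. This choice favours an overlapping gene that stands above the locus. Both were called in 44 pairs, 26 in the same and 18 in opposite directions. How many would go the same way from the separate shares alone was not tested. Suffixed Rik loci that overlap each other are counted from both sides. These are 5830417I10Rik with 1500004A13Rik, 5830444B04Rik with Cfap74, and 1700086O06Rik with Dele1. Only the pair of 1700086O06Rik and Dele1 has both called, and it enters the opposite directions from each side. Among the 30 tested opposite-strand pairs with nearby starts, 26 loci rose and 3 fell, while 7 overlapping genes rose and 9 fell, and of 16 pairs with both called 6 went the same way and 10 opposite ways.

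Single pairs show the range. Mat2a, opposite Particl, stood at 312.2, 273.2 and 299.5 CPM in WT and at 124.0, 119.0 and 133.4 CPM in depleted libraries (log2 fold change -1.23 ± 0.09, edgeR adjusted p = 2.98e-08), so it fell where Particl rose. Apobec3, a cytidine deaminase that restricts retroviruses, averaged 981 ± 11.2 CPM in WT libraries and 240.7 ± 11.6 CPM after depletion (SD, n = 3 each) and fell with a log2 fold change of -2.03 (edgeR adjusted p = 1.48e-10), while D730005E14Rik on its opposite strand rose with a log2 fold change of 1.80. Phf10, a chromatin remodelling subunit, fell with a log2 fold change of -1.59 and the locus 1600012H06Rik opposite it rose with 1.91. The reverse held for Znfx1, opposite Zfas1, which stood at 30.6, 32.0 and 35.2 CPM in WT and 51.4, 50.7 and 64.3 CPM in depleted libraries (log2 fold change 0.77 ± 0.11, edgeR adjusted p = 2.32e-05). These 4 pairs moved in opposite directions, and the pairs of D730005E14Rik and 1600012H06Rik were chosen after their values were seen.

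In other pairs the overlapping gene rose less than the locus or did not pass the test. Stk35 stood at 24.3, 25.7 and 21.0 CPM in WT and at 50.9, 48.6 and 58.7 CPM in depleted libraries, a log2 fold change of 1.16 ± 0.11 (edgeR adjusted p = 4.09e-07) beside 2.69 for Stk35os1. Chd2 stood at 42.6, 48.6 and 43.7 CPM in WT and at 50.6, 57.3 and 73.6 CPM in depleted libraries, a log2 fold change of 0.43 ± 0.12 (edgeR adjusted p = 7.89e-03) beside 1.5 for Chaserr. Larp4 (-0.21 ± 0.13, edgeR adjusted p = 0.16), Zbtb11 (0.20 ± 0.11, edgeR adjusted p = 0.141) and Lpp (0.43 ± 0.24, edgeR adjusted p = 0.149) did not pass, beside 2.84, 2.44 and 0.73 for the loci opposite them. Cmya5 and Ntng2 rose with their loci, with log2 fold changes of 3.25 beside 4.88 for A630019I02Rik and 2.62 beside 1.49 for 6530402F18Rik. Where the gene and the locus moved the same way, the part of shared reads in the rise was not tested.

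**Figure D5:**
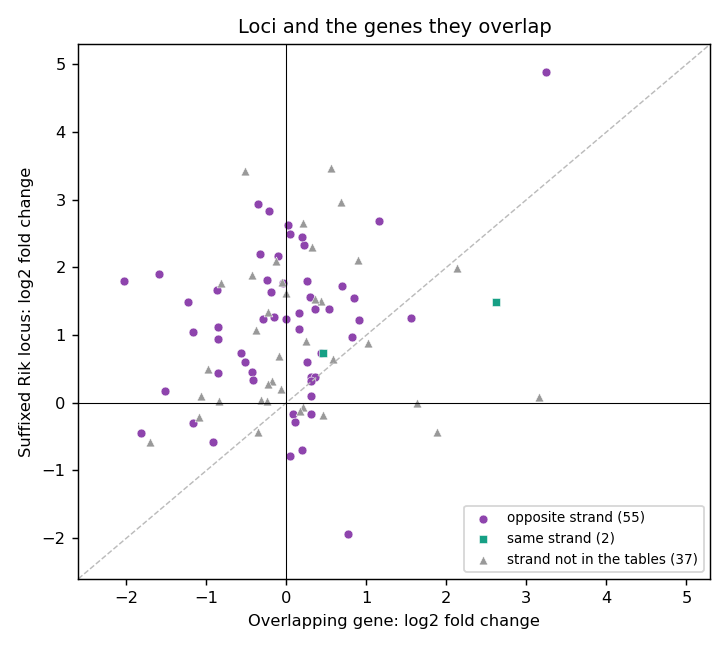
Log2 fold change of each suffixed Rik locus (vertical) against that of the gene it overlaps (horizontal) for the 94 pairs with both tested; symbols give the relation of the strands and the dashed line marks equal change. In 76 pairs the locus lies above the line, and Zfas1 is the point at -1.94 on the vertical axis.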

How the data were processed

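RNA-seq of 3 WT and 3 Spt5-depleted B cell cultures was used. The deposited table holds whole read counts per gene, and beside them a log2 fold change and an adjusted p-value per gene computed by the authors, which enter only the sentence on the authors' deposited table. Per the labels' protocols, Trizol was used for extraction and the SENSE mRNA-seq kit of Lexogen for the libraries. Build mm9 and the tools featureCounts 1.5.0-p1, DESeq2 1.10.1, TopHat, cutadapt 1.10 and Bowtie2 2.1.0 are named per the submitters' processing notes, and the sources used here give neither their roles nor the annotation and strand setting. Every row has at least 10 counts in all.

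Counts were fitted in R 4.3.3 with edgeR 4.0.16 (TMM, filterByExpr, robust quasi-likelihood two-sided F test), with Benjamini-Hochberg adjustment over 12024 genes and a threshold of 0.05; the fit was tested on simulated data. There is no spike-in RNA. The coefficient of variation between replicates, fitted over both groups together, was 0.098. Relative to counting error, pairs of WT libraries differed more than pairs of depleted libraries (chi-square per degree of freedom 28.02 to 33.18 against 6.455 to 10.85). Alternatives used limma 3.58.1 and DESeq2 1.42.0. Members and lists were chosen with earlier results of these data known. Named loci are the 12 largest rises and 8 largest falls without overlap between groups, the 6 with the highest WT level, the 2 largest rises per WT class, the 4 highest that did not pass, the 3 nearest the threshold on each side and the 8 smallest p-values among loci with another current symbol; the genes they overlap are named with them. Loci were matched to RefSeq by symbol, then synonym.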

Additional observations from a re-analysis of the deposited data

How the results depend on the processing

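Loci called higher numbered 68 to 75 and loci called lower 8 to 11 when each library was left out in turn, against 73 and 12. With a 2-fold minimum 3 suffixed loci were lower, Rik loci without a suffix gave 135 higher and 21 lower, other suffixed rows 139 and 92, and all genes 1187 and 917. With a mean of at least 5 CPM, 24 suffixed loci and 109 Rik loci without a suffix were higher, since fewer loci are tested, and among loci at the filter level in every WT library, a choice added after seeing the data, 46 were higher. Library totals alone moved the median of all genes from 0.005 to 0.164 and gave class medians of 0.97, 1.30, 1.19, 0.084 and 0.48 from low to high WT level. With classes by the mean over all 6 libraries the medians under 0.5, from 2 to 8 and from 8 to 32 CPM were 0.64, 1.26 and 0.0071, and with 0.5 CPM added to both means those of the lowest 2 classes were 0.36 and 0.89; the cause was not tested. Over the 40 named loci, 515 of 543 values kept direction and call, 22 lost the call, 6 gained it and 0 reversed. Same-numbered libraries did not deviate together (correlations 0.034, -0.051 and -0.032), and the fit with the replicate number as a block gave 73 higher and 12 lower. Depth limits loci under about 0.5 CPM, where a few counts make the level.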
